A study of Mus musculus with 16 samples.

Results

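The kinetochore and spindle checkpoint genes described here are Cenpa, Cenpe, Cenpf, Bub1, Bub1b, Mad2l1, Ttk, Ndc80, Nuf2 and Sgo2a, a list of 10 named genes among the 18193 genes measured on the arrays. Each was read from the probe sets annotated to its symbol alone, 19 in all, and is led below by its brightest probe set, taken over the 16 arrays. The lead probe sets were 1450842_a_at for Cenpa, 1435005_at for Cenpe, 1427161_at for Cenpf, 1424046_at for Bub1, 1447363_s_at for Bub1b, 1422460_at for Mad2l1, 1449171_at for Ttk, 1417445_at for Ndc80, 1430811_a_at for Nuf2 and 1437370_at for Sgo2a. The mean signal of all 10 lead probe sets lay above the background of 2.97 on the log2 scale, which is the 95th percentile of spiked control transcripts that were absent from an array.

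Airway epithelial cells of C57BL/6 mice were cultured at an air-liquid interface, a system in which basal cells of the airway build a layer with secretory and ciliated cells. There were 16 cultures in 4 groups of 4: Mmp7-/- (Mmp7-null) scratched, Mmp7-null uninjured, wild-type scratched and wild-type uninjured. Mmp7 encodes matrilysin, a secreted metalloproteinase of mucosal epithelium. Scratched cultures received 3 scratches, and all cultures were kept without serum for 24 hours before RNA isolation. The labels give neither the time between scratching and harvest nor the mice behind each culture, so p-values cover the spread among these cultures alone.

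The median signal of an array was between 9.357 and 10.16 on the linear scale. Each array carried 1 of 3 spike-in control sets, and only the Phe set held arrays of both genotypes, so that a difference between genotypes is also, in large part, one between spike-in sets. The arrays of Mmp7-null scratched culture 1 and wild-type scratched cultures 3 and 4 were doubted. Mmp7-null scratched culture 1 had an upper quartile of 119.1 and wild-type scratched culture 3 one of 115, the lowest 2 values, against a highest of 134. Wild-type scratched culture 4 had a gap of 2.62 log2 units between the 3' and 5' actin controls, against 1.53 to 1.93 on the other arrays. The Mmp7 probe set gave 2.13 to 2.59 log2 units on all 16 arrays, below background in wild-type cultures too, so it does not check the genotype labels. All 12 airway epithelium markers were above background.

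The kinetochore is the protein assembly on each centromere that holds spindle microtubules. Its base is chromatin with the histone H3 variant CENP-A, its microtubule grip is the Ndc80 complex, and its outermost layer, the corona, carries the motor CENP-E and the large coiled-coil protein CENP-F. Kinetochores without microtubules recruit the kinases TTK (MPS1) and BUB1 with BUBR1 and MAD2, which together keep the anaphase-promoting complex off until every chromosome is attached, while shugoshins protect cohesin at the centromere. Most of these genes are transcribed in G2 and mitosis, when complexes built on the MuvB core bind the cell cycle genes homology region (CHR) of their promoters. Basal and club cells of the airway can divide, mature ciliated cells do not, and cells that build many centrioles use part of the mitotic machinery.

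The promoters are shown because the letters of CHR elements and CCAAT boxes differ among the members. The part of these elements in the expression results was not tested. Sequences are from RefSeq on the GRCm38.p6 build, 250 bases before to 50 bases after the start site, 5′ to 3′ on the strand of the gene. All 10 genes matched, with 11 windows, since Sgo2a has a pair of them. For Cenpa, Cenpf, Bub1b, Ttk and window 2 of Sgo2a the start site used is not the RefSeq start of the gene. Capitals mark matches on either strand. The first CHR form searched was TTTGAA. The second form was TTCGAA, which reads the same on both strands. The third form, also the same on both strands, was TTTAAA. The box of the factor NF-Y was searched as CCAAT, and no motif contains another. The first 5 windows below belong to members with a CHR form, and the last 2 to members without one.
Cenpa, chr5:30666636-30666935, plus strand: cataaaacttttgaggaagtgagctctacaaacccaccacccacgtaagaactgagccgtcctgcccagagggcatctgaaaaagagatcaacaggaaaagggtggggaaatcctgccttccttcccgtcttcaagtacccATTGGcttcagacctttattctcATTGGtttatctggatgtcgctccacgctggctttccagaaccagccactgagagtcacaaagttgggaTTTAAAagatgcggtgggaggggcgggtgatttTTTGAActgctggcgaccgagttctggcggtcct
Cenpe, chr3:135212313-135212612, plus strand: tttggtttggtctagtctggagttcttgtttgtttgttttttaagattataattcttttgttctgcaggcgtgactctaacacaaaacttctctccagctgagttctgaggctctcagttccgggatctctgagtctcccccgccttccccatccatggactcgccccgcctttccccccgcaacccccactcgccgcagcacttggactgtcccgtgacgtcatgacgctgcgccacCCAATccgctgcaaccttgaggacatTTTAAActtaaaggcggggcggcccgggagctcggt
Cenpf, chr1:189688037-189688336, minus strand: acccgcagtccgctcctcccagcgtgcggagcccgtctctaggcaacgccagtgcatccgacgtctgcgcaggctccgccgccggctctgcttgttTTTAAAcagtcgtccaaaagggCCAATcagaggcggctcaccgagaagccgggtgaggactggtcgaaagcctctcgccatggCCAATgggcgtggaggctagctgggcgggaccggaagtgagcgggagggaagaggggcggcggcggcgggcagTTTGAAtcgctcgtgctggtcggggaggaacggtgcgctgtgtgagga
Bub1b, chr2:118597961-118598260, plus strand: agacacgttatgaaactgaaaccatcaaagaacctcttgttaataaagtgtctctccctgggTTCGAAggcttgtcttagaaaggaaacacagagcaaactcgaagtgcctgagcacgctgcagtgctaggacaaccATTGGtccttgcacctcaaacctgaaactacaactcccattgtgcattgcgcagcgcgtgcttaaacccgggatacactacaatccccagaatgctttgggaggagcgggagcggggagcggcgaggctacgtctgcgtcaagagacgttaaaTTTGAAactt
Ttk, chr9:83834439-83834738, plus strand: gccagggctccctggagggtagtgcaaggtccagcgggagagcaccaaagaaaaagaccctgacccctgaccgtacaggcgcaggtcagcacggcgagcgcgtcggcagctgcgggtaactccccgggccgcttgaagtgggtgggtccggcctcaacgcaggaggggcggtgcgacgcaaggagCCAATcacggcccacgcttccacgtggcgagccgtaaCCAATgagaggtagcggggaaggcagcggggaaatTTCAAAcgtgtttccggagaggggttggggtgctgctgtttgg
Mad2l1, chr6:66534971-66535270, plus strand: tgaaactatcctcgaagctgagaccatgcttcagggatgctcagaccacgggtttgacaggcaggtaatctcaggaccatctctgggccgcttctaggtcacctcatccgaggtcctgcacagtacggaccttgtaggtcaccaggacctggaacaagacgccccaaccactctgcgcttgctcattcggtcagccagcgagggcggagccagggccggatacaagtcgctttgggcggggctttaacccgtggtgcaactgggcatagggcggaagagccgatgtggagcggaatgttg
Sgo2a, chr1:57985090-57985389, plus strand: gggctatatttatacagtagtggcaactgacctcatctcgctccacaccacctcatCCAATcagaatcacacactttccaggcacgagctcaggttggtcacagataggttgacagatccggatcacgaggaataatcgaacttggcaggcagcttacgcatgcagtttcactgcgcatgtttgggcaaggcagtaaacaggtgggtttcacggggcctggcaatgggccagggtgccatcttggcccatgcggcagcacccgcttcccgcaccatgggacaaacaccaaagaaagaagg

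A CHR form was present in the windows of 7 of the 10 genes, Cenpa, Cenpe, Cenpf, Bub1, Bub1b, Ttk and Ndc80. By window this was 7 of 11, against 28.8% of all 32851 windows of the same length. All 7 genes had a CHR form in the last 100 bases of the window, where 8.62% of all windows had one. That stretch was chosen after the matches had been seen. The first form alone was present for 5 of 10 genes and in 5 of 11 windows, against 17.9% of all windows. The third form was present for 4 genes, in 4 windows, against 13.2% of all windows. The second was present for 2 genes, Bub1 and Bub1b, in 2 windows, against 1.56%. A CCAAT box was present for 7 of 10 genes and in 8 of 11 windows, against 37.4% of all windows. Mad2l1 and Nuf2 had none of the motifs, and Sgo2a had only a CCAAT box in each of its windows. These matches are descriptions of letters and say nothing of binding.

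**Figure D1:**
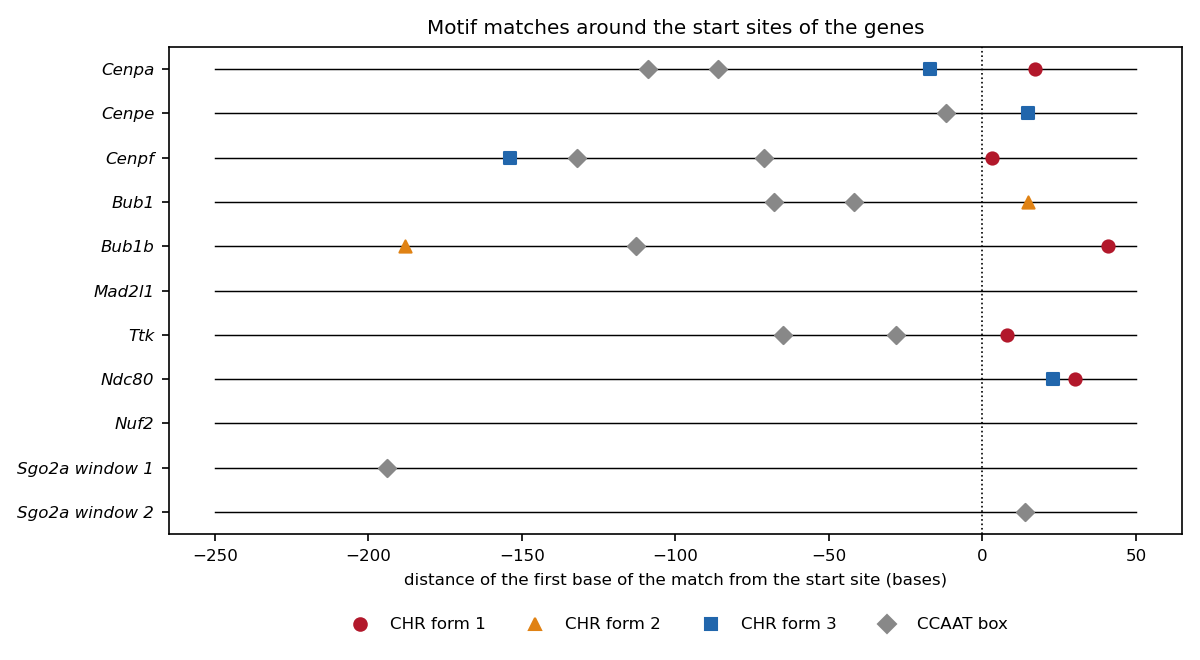
Motif matches in the promoter windows of the 10 genes. The x axis gives the distance in bases of the first base of a match from the start site (dotted line), each row is a window of 300 bases, CHR forms 1, 2 and 3 are those of the text in the same order, and grey diamonds are CCAAT boxes; 7 of the 10 genes have a CHR form, and Mad2l1 and Nuf2 have no match.

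Scratched cultures had a higher signal of kinetochore and checkpoint genes than uninjured ones, by a test passed by 3 genes in Mmp7-null and by 9 in wild-type cultures. In Mmp7-null cultures the 3 were Cenpa, Cenpe and Cenpf, with a median log2 fold change of 0.40 over the 10 genes and -0.02 over all genes, where 2.27% of all genes rose. In wild-type cultures the 9 were all but Bub1, with a median of 1.08 over the 10 genes and 0.01 over all genes, where 2.55% of all genes rose. Without the 3 doubted arrays the counts were 4 in Mmp7-null and 9 in wild-type cultures. With only the 8 arrays of each comparison they were 2 in Mmp7-null and 6 in wild-type cultures. The uninjured wild-type group had the lowest mean for all 10 genes, and the scratched wild-type group the highest mean for 9, the exception being Ndc80. For 8 genes the order was scratched wild-type, scratched Mmp7-null, uninjured Mmp7-null and uninjured wild-type. Between the first and second of that order no gene passed the test. All tests were limma's moderated test with Benjamini-Hochberg adjustment over 18193 genes, and a gene rose or fell where the adjusted p was under 0.05.

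**Figure D2:**
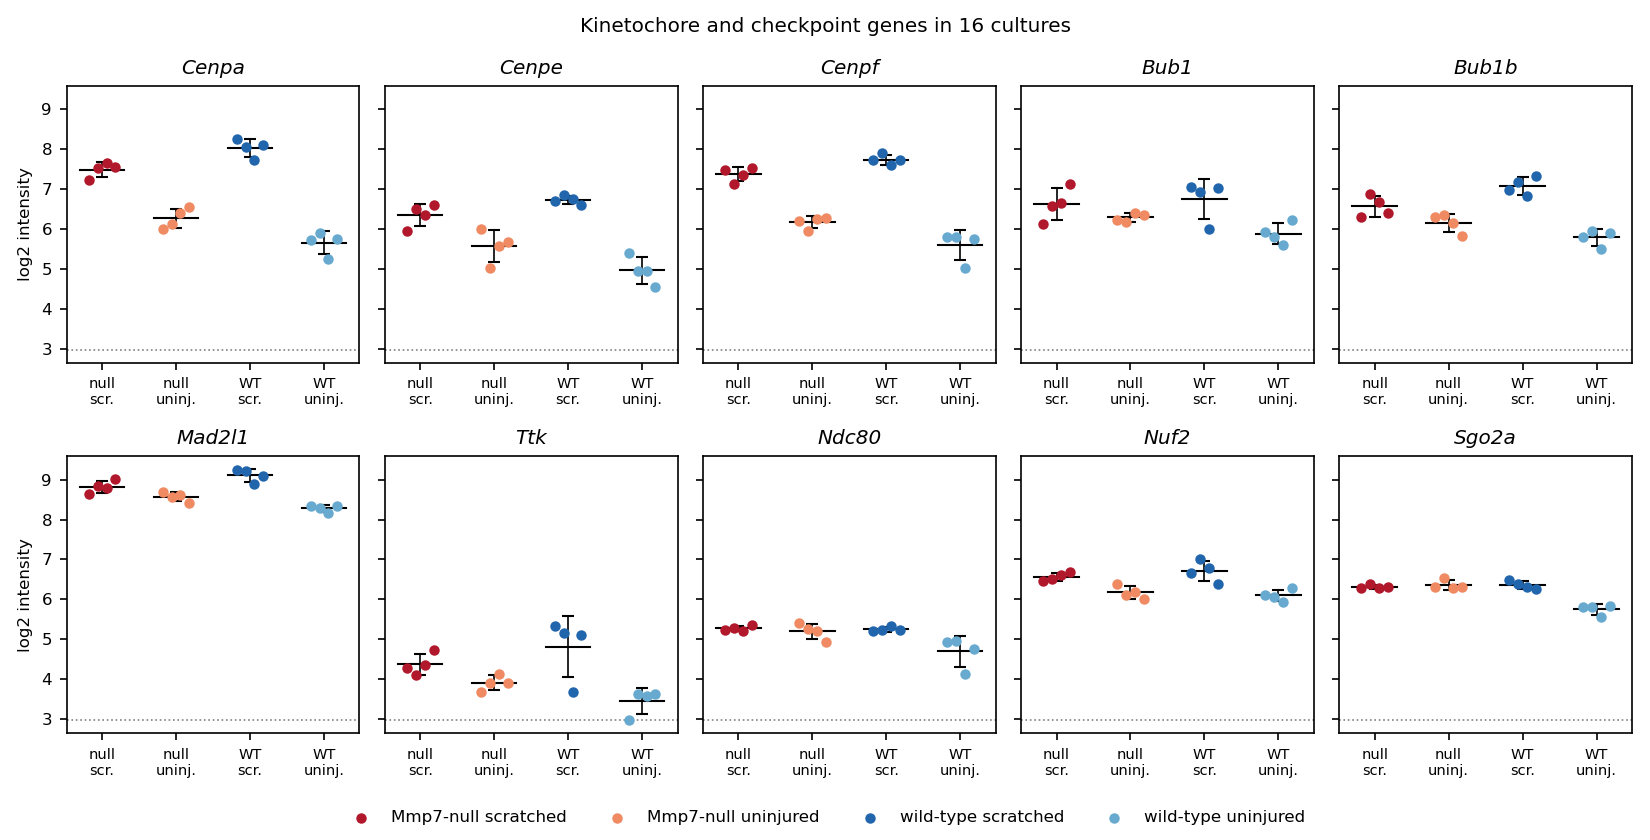
Signal of the 10 genes on the 16 arrays. The y axis is log2 intensity of the lead probe set, points are cultures in the order of their replicate numbers, horizontal lines and error bars are group means ± SD (n = 4), and the dotted line is the background of 2.97; for all 10 genes the uninjured wild-type group has the lowest mean.

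At the base of the kinetochore, Cenpa, which encodes the centromeric histone variant, had 7.23, 7.53, 7.64 and 7.55 log2 units in scratched Mmp7-null cultures, against 6.00, 6.12, 6.39 and 6.54 in uninjured Mmp7-null cultures. It had 8.26, 8.04, 7.73 and 8.09 log2 units in scratched wild-type cultures, against 5.73, 5.91, 5.24 and 5.74 in uninjured wild-type cultures. Every scratched culture was above every uninjured one, and the 2 scratched groups did not overlap. The log2 fold change was 1.22 (SE 0.16), a 2.33-fold rise, in Mmp7-null cultures (adjusted p = 0.00075) and 2.37 (SE 0.16), a 5.18-fold rise, in wild-type cultures (adjusted p = 1.4e-06). By lead probe sets it had the largest scratch response of the 10 genes in either genotype. With the mean of all probe sets of a gene, which counts those below background too, it had 0.46 in Mmp7-null cultures, under Cenpf at 0.57 and Cenpe at 0.55, and 1.06 in wild-type cultures, under Cenpe at 1.10. Its second probe set, 1444416_at, was dimmer and gave smaller log2 fold changes, 0.18 (SE 0.18) in Mmp7-null and 0.79 (SE 0.18) in wild-type cultures, while the third, 1441864_x_at, was below background.

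In the corona, Cenpf, a coiled-coil protein of the nuclear matrix and kinetochore, had 7.48, 7.12, 7.36 and 7.52 log2 units in scratched Mmp7-null cultures, against 6.21, 5.95, 6.25 and 6.27 in uninjured ones. It had 7.73, 7.90, 7.59 and 7.72 log2 units in scratched wild-type cultures, against 5.79, 5.81, 5.02 and 5.76 in uninjured ones. The scratched cultures were again above all uninjured ones, and those of wild-type were the highest 4. The rise was 2.30-fold (log2 1.20, SE 0.16, adjusted p = 0.00081) in Mmp7-null cultures and 4.41-fold (log2 2.14, SE 0.16, adjusted p = 2.8e-06) in wild-type cultures. Its other probe sets, 1458447_at and 1452334_at, were below background.

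Cenpe encodes the plus-end-directed kinesin that brings chromosomes to the spindle equator. It had 5.96, 6.50, 6.34 and 6.59 log2 units in scratched Mmp7-null cultures, against 6.00, 5.03, 5.57 and 5.68 in uninjured ones, with scratched culture 1 just under uninjured culture 1. In wild-type it had 6.70, 6.84, 6.74 and 6.61 log2 units in scratched cultures, against 5.40, 4.95, 4.95 and 4.55 in uninjured ones, and the groups did not overlap. The Mmp7-null rise was 1.71-fold (log2 0.78, SE 0.20, adjusted p = 0.045), and the wild-type rise 3.39-fold (log2 1.76, SE 0.20, adjusted p = 0.00014). The Mmp7-null call held in 4 of 16 fits with 1 array left out, those without Mmp7-null scratched 1, Mmp7-null uninjured 1, wild-type uninjured 1 or wild-type uninjured 4. Its log2 fold change lay between 0.60 and 0.92 over the 16 fits, with a highest adjusted p of 0.12. The second Cenpe probe set, 1439040_at, lay just above background at a mean of 3.06 log2 units and gave smaller responses, 0.33 (SE 0.23) in Mmp7-null and 0.43 (SE 0.23) in wild-type cultures, with a difference of -0.10 (SE 0.32).

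The microtubule-binding Ndc80 complex was measured through Ndc80 and Nuf2, its long coiled-coil pair. Ndc80 had 5.23, 5.29, 5.22 and 5.36 log2 units in scratched Mmp7-null cultures, against 5.40, 5.26, 5.21 and 4.94 in uninjured ones. It had 5.20, 5.23, 5.34 and 5.24 log2 units in scratched wild-type cultures, against 4.94, 4.96, 4.14 and 4.77 in uninjured ones. Uninjured Mmp7-null culture 4 lay among the uninjured wild-type cultures, so these groups overlapped, and all scratched cultures lay above all uninjured wild-type ones. The log2 fold change was 0.07 (95% interval -0.25 to 0.39) in Mmp7-null cultures, and 0.55 (SE 0.15, adjusted p = 0.049) in wild-type cultures, where the call held in 4 of 16 fits with 1 array left out, those without Mmp7-null uninjured 4 or wild-type uninjured 1, 2 or 3. It was also lost without the 3 doubted arrays (adjusted p = 0.23).

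Nuf2 had 6.46, 6.51, 6.60 and 6.69 log2 units in scratched Mmp7-null cultures, against 6.38, 6.12, 6.19 and 6.01 in uninjured ones. These groups did not overlap, but the log2 fold change of 0.39 (SE 0.12) had an adjusted p of 0.081, which became 0.049 without wild-type scratched 2 and 0.036 without wild-type scratched 4. In wild-type it had 6.66, 7.01, 6.78 and 6.39 log2 units in scratched cultures, against 6.11, 6.07, 5.94 and 6.29 in uninjured ones. That 1.52-fold rise passed the test (log2 0.61, SE 0.12, adjusted p = 0.0080).

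Of the checkpoint kinases, Bub1b, which encodes the BUBR1 arm of the mitotic checkpoint complex, had 6.30, 6.87, 6.68 and 6.40 log2 units in scratched Mmp7-null cultures, against 6.30, 6.34, 6.14 and 5.82 in uninjured ones. In wild-type it had 6.98, 7.18, 6.82 and 7.33 log2 units in scratched cultures, against 5.81, 5.94, 5.49 and 5.91 in uninjured ones. In Mmp7-null the lowest scratched culture lay under the highest uninjured one, and the wild-type groups were well apart. The Mmp7-null log2 fold change of 0.41 (SE 0.16) did not pass (adjusted p = 0.17), and the wild-type rise was 2.45-fold (log2 1.29, SE 0.16, adjusted p = 0.00021). Its second probe set, 1416961_at, gave 0.46 (SE 0.15) in Mmp7-null and 0.86 (SE 0.15) in wild-type cultures, so the gap between the genotypes was smaller there. Its remaining one, 1447362_at, was below background. The suffix of the lead probe set marks probes that may match several transcripts.

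Ttk encodes the kinase at the head of checkpoint signalling. It had 4.28, 4.12, 4.35 and 4.74 log2 units in scratched Mmp7-null cultures, against 3.68, 3.91, 4.14 and 3.92 in uninjured ones. In wild-type it had 5.33, 5.15, 3.69 and 5.11 log2 units in scratched cultures, against 2.97, 3.64, 3.57 and 3.63 in uninjured ones. Scratched wild-type culture 3 stood far below the other scratched wild-type cultures and just above the uninjured ones. In Mmp7-null cultures the log2 fold change was 0.46 (95% interval -0.18 to 1.10). The wild-type rise was 2.58-fold (log2 1.37, SE 0.30, adjusted p = 0.016), and the call was lost without wild-type scratched 1 (adjusted p = 0.052) or wild-type uninjured 1 (adjusted p = 0.059). Its other probe set, 1442594_at, was below background.

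Bub1, the kinase that marks centromeric histone H2A and holds the other checkpoint proteins at the kinetochore, had 6.13, 6.58, 6.66 and 7.13 log2 units in scratched Mmp7-null cultures, against 6.22, 6.17, 6.41 and 6.36 in uninjured ones. It had 7.04, 6.92, 6.01 and 7.02 log2 units in scratched wild-type cultures, against 5.92, 5.79, 5.59 and 6.22 in uninjured ones. Scratched wild-type culture 3 was again low, and it alone overlapped with the uninjured cultures. In Mmp7-null cultures the log2 fold change was 0.34 (95% interval -0.17 to 0.84). Bub1 was the 1 gene of 10 that missed the threshold in wild-type cultures, at a log2 fold change of 0.87 with SE 0.24 (adjusted p = 0.051). Without wild-type scratched 3 it was 1.12 (SE 0.19, adjusted p = 0.0051), and it also passed without Mmp7-null scratched 1 or 4. The second Bub1 probe set, 1438571_at, at a mean of 3.13 log2 units, gave 0.14 (SE 0.15) in Mmp7-null and 0.28 (SE 0.15) in wild-type cultures.

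Mad2l1 encodes MAD2, the checkpoint protein that captures CDC20. It had 8.65, 8.83, 8.80 and 9.02 log2 units in scratched Mmp7-null cultures, against 8.69, 8.56, 8.62 and 8.42 in uninjured ones, which overlapped. It had 9.24, 9.21, 8.89 and 9.08 log2 units in scratched wild-type cultures, against 8.33, 8.29, 8.16 and 8.34 in uninjured ones, which did not. The Mmp7-null log2 fold change was 0.25 (SE 0.09, adjusted p = 0.14), and without the 3 doubted arrays it was 0.31 and passed (adjusted p = 0.039). The wild-type rise was 1.77-fold (log2 0.83, SE 0.09, adjusted p = 7.4e-05).

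Sgo2a encodes a shugoshin, the partner of the PP2A phosphatase that shields centromeric cohesin. It had 6.29, 6.39, 6.29 and 6.31 log2 units in scratched Mmp7-null cultures, against 6.31, 6.54, 6.29 and 6.31 in uninjured ones. In wild-type it had 6.48, 6.38, 6.32 and 6.27 log2 units in scratched cultures, against 5.81, 5.80, 5.55 and 5.84 in uninjured ones. Hence 3 of the groups lay within 6.27 to 6.54, and every uninjured wild-type culture lay below them. The log2 fold change was -0.04 (95% interval -0.19 to 0.11) in Mmp7-null cultures, against a 1.53-fold rise (log2 0.61, SE 0.07, adjusted p = 0.00014) in wild-type cultures.

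All 4 scratched cultures lay above all 4 uninjured ones for 3 of the 10 genes (Cenpa, Cenpf and Nuf2) in Mmp7-null cultures, where this was so for 4.1% of all genes, and for 9 of 10 in wild-type cultures, where it was so for 4.21% of all genes. The model with a term for the spike-in set called 2 genes in Mmp7-null and 8 in wild-type cultures, since Cenpe (adjusted p = 0.061) and Ndc80 (adjusted p = 0.068) were lost. Within the Lys set, with 2 scratched and 2 uninjured Mmp7-null arrays, the log2 fold change was 1.33 for Cenpa and 1.42 for Cenpf, and within the Phe set, also with 2 arrays on each side, it was 1.11 and 0.97, of which neither passed. Within the Trpn set, with 3 scratched and 3 uninjured wild-type arrays, it was 2.32 for Cenpa, 2.21 for Cenpf and 0.59 for Sgo2a. In that set Ttk (adjusted p = 0.19), Ndc80 (0.12), Nuf2 (0.082) and Bub1 (0.28) did not pass. In the Phe set, with 1 wild-type array on each side, the log2 fold change of Cenpa, Cenpf and Sgo2a was 2.53, 1.95 and 0.67. That last pair of arrays has no spread of its own. The 4 other probe sets above background had the sign of their lead in both genotypes, with smaller wild-type responses in each case, and the 5 below background gave -0.02 to 0.51 in Mmp7-null and 0.01 to 0.29 in wild-type cultures.

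Because RNA was taken from whole cultures, more cells of a type and more RNA per cell cannot be told apart. Marker sums of other cell types are on the linear scale. The 12 fibroblast markers summed to 256.4 to 376.2 in scratched Mmp7-null cultures, against 146.5 to 214.3 in uninjured ones, and to 145.6 to 191.3 in scratched wild-type cultures, against 104.5 to 130 in uninjured ones. In that list 8 of 12 markers were below background, among them Col1a1, Col1a2, Pdgfra and Pdgfrb, and Dcn was the 1 marker that rose with scratching in each genotype. The 12 leukocyte markers summed to 8936 to 11170 in scratched Mmp7-null cultures, against 6468 to 8789 in uninjured ones, and to 8736 to 11090 in scratched wild-type cultures, against 6529 to 8686 in uninjured ones. Of these 6 were below background, among them Ptprc. The sum is mostly Lyz2, the lysozyme gene, at means of 13.25 log2 units in scratched and 12.85 in uninjured Mmp7-null cultures and 13.19 in scratched and 12.85 in uninjured wild-type cultures, where neither change passed. No leukocyte marker passed with scratching in Mmp7-null cultures, with a median of -0.02 over the list, and Cd68, a lysosomal protein, rose by 1.03 in wild-type cultures (adjusted p = 0.00041). Endothelial markers had 7 of 8 below background and sums of 45.19 to 54.48 on all arrays. The 12 basal cell markers, all above background, summed to 22970 to 26740 in scratched Mmp7-null cultures, against 29770 to 31110 in uninjured ones, and to 27120 to 28540 in scratched wild-type cultures, against 27980 to 31410 in uninjured ones. Among them the keratin genes Krt5 and Krt15 fell in Mmp7-null cultures, Krt5, Trp63, Itgb4 and Bcam fell in wild-type cultures, and Krt17 rose in both. The part of fibroblast, leukocyte and basal cell markers in the scratch results was not tested.

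**Figure D3:**
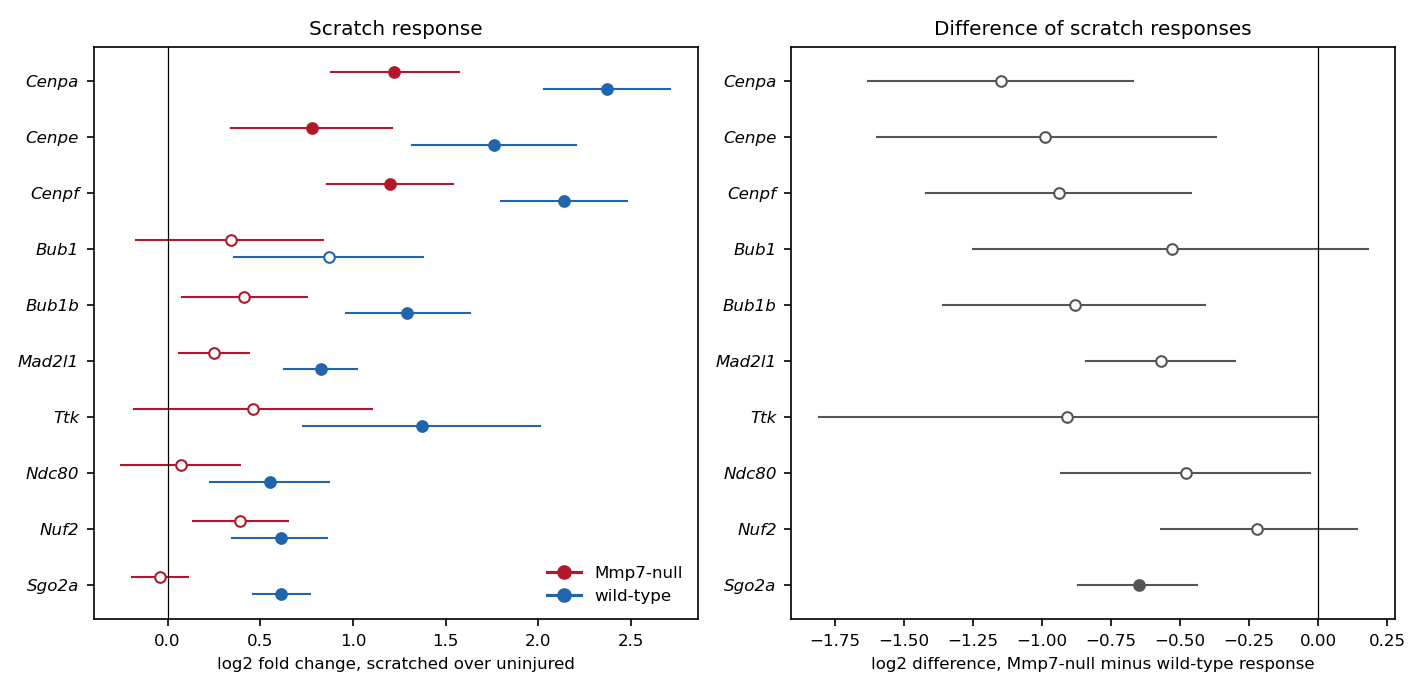
Scratch responses of the 10 genes and their difference. The left x axis is the log2 fold change of scratched over uninjured cultures in Mmp7-null (red) and wild-type (blue), the right x axis the Mmp7-null minus the wild-type response; points are estimates, lines unadjusted 95% intervals, and filled points have an adjusted p under 0.05. All 10 differences are below 0, and Sgo2a is the 1 filled point at -0.65.

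The scratch response was smaller in Mmp7-null than in wild-type cultures for all 10 genes in its estimate, but the difference itself passed the test for 1 gene, Sgo2a. Its difference was -0.65 (SE 0.10, adjusted p = 0.025), where 0.104% of all genes had a response called lower in Mmp7-null cultures. With a term for the spike-in set it was -0.65 (adjusted p = 0.043). Leaving out Mmp7-null scratched 3 (adjusted p = 0.058), Mmp7-null scratched 4 (0.052), wild-type scratched 1 (0.054) or wild-type scratched 2 (0.058) ended the call, as did trended and robust variance (0.080) and arrays centred on their medians (0.081). The estimate stayed within -0.69 to -0.59 over all 16 such fits. Within the Phe set, with 2 Mmp7-null arrays and 1 wild-type array per state, it was -0.63. The lone wild-type arrays of that set have no spread of their own, so its genotype values are given with no test. The median difference over the 10 genes was -0.77, against -0.03 over all genes. For Cenpa the difference was -1.15 (95% interval -1.63 to -0.67, adjusted p = 0.085), for Cenpf -0.94 (95% interval -1.42 to -0.46, adjusted p = 0.16) and for Mad2l1 -0.57 (95% interval -0.84 to -0.30, adjusted p = 0.12). Adjusted p-values of the remaining 6 ran from 0.19 for Bub1b to 0.75 for Nuf2, whose difference of -0.22 was the smallest. The 2 responses rest on different cultures, but each shares its cultures with the genotype comparisons, so the comparisons are not independent of each other.

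In uninjured cultures, 2 of the 10 genes were higher in Mmp7-null, Cenpa by 1.52-fold (log2 0.61, SE 0.16, adjusted p = 0.045) and Sgo2a by 1.53-fold (log2 0.61, SE 0.07, adjusted p = 0.00044), where 2.3% of all genes were higher. All 10 estimates were above 0, with a median of 0.48, against -0.01 over all genes. Among those that missed the threshold were Cenpf at 0.58 (adjusted p = 0.055), Ndc80 at 0.50 (adjusted p = 0.073), Mad2l1 at 0.30 (adjusted p = 0.080) and Cenpe at 0.61 (adjusted p = 0.12). All 4 Mmp7-null cultures lay above all 4 wild-type cultures for Cenpa, Cenpf, Mad2l1, Ttk and Sgo2a, 5 of 10 genes, where 5.44% of all genes did so. With a term for the spike-in set neither call held, with Sgo2a at 0.50 (SE 0.10, adjusted p = 0.056) and Cenpa at 0.60 (SE 0.20, adjusted p = 0.28). Within the Phe set, with 2 Mmp7-null arrays and 1 wild-type array, Sgo2a had 0.49 and Cenpa 0.74. The Cenpa call held in 5 of 16 fits with 1 array left out, those without Mmp7-null scratched 1, Mmp7-null uninjured 1, wild-type scratched 1, wild-type scratched 3 or wild-type uninjured 2, and its estimate ranged from 0.47 to 0.70. The Sgo2a call held in all 16.

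In scratched cultures none of the 10 genes passed the test between genotypes, where limma called 6.21% of all genes in either direction. The median was -0.32 over the 10 genes and -0.04 over all genes. Cenpa at -0.54 (SE 0.16, adjusted p = 0.063), Bub1b at -0.52 (SE 0.16, adjusted p = 0.071) and Mad2l1 at -0.28 (SE 0.09, adjusted p = 0.088) were nearest to the threshold. All 4 Mmp7-null cultures lay below all 4 wild-type cultures for Cenpa, Cenpe and Cenpf, 3 of 10, but so they did for 28.5% of all genes. The count is therefore near its background. Within the Phe set Cenpa had -0.68 and Mad2l1 -0.43. Ndc80 at 0.02 (95% interval -0.29 to 0.34) was the 1 estimate above 0. Sgo2a, at -0.04 (95% interval -0.19 to 0.11), had the narrowest interval. Leaving out wild-type scratched 3 called Cenpa, Mad2l1 and Ttk lower in Mmp7-null cultures, leaving out wild-type uninjured 3 called Cenpa and Cenpf, leaving out Mmp7-null scratched 2 called Bub1b, and leaving out Mmp7-null scratched 4 called Mad2l1.

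**Figure D4:**
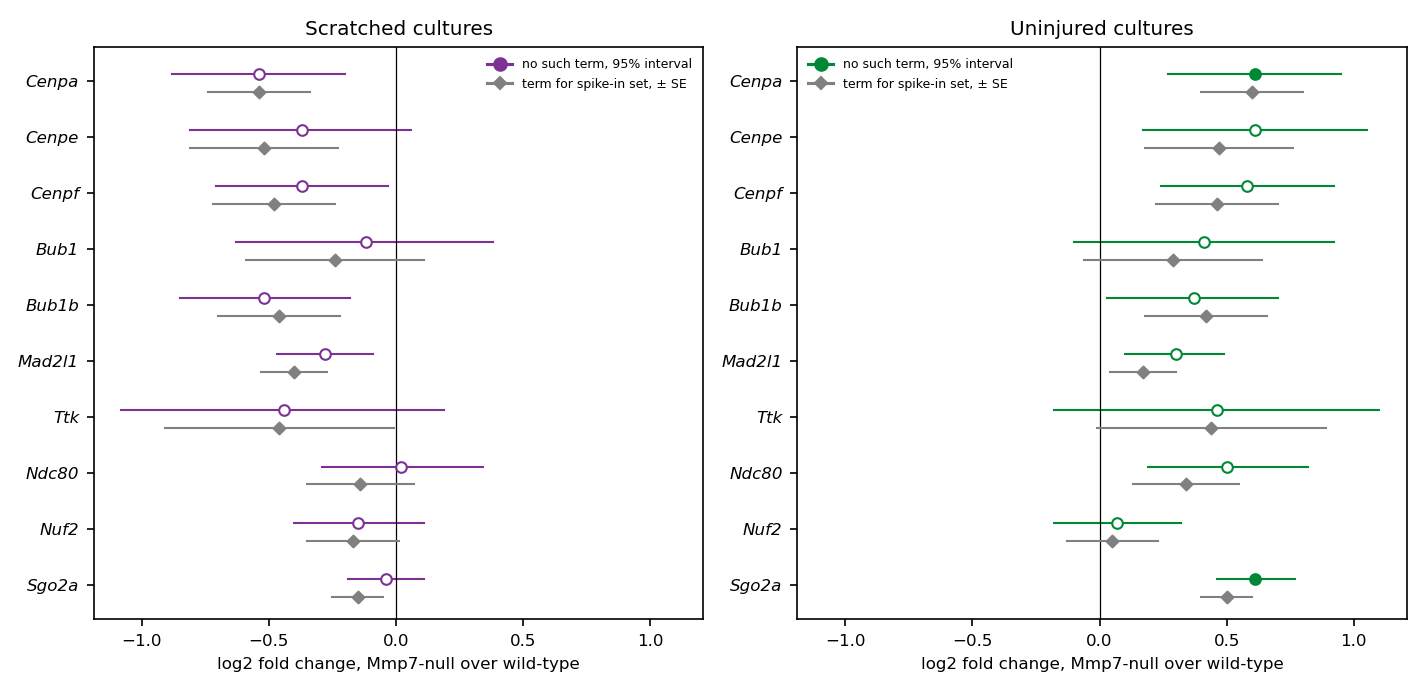
Genotype differences of the 10 genes in scratched and in uninjured cultures. The x axes give the log2 fold change of Mmp7-null over wild-type; circles are estimates with unadjusted 95% intervals, filled where the adjusted p is under 0.05, and grey diamonds are estimates ± SE with a term for the spike-in set. All 10 uninjured estimates are above 0, and Cenpa and Sgo2a are filled.

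Ciliated cell markers moved with genotype as lists, while of the fibroblast and basal cell lists only single markers did. Median log2 fold changes of Mmp7-null over wild-type are given for uninjured, then scratched cultures. They were 0.62 and 0.74 for multiciliated and 0.58 and 0.77 for deuterosome stage markers. For fibroblast markers they were 0.03 and 0.05, and for basal cell markers -0.05 and 0.07. The 8 measured deuterosome stage markers, genes of the cells that build many centrioles, summed to 3727 to 4019 in scratched Mmp7-null cultures, against 1875 to 2164 in scratched wild-type cultures, and to 4321 to 4598 in uninjured Mmp7-null cultures, against 2521 to 2944 in uninjured wild-type cultures. In this list Cdc20b was below background, and Deup1, Ccno, Myb, Plk4 and Cep152 were higher in Mmp7-null cultures in both states. Deup1, a scaffold of the deuterosome, was higher by 0.83 log2 units in uninjured cultures (adjusted p = 7.0e-05). With scratching the sums were lower in both genotypes, and Deup1 fell by 0.36 in Mmp7-null (adjusted p = 0.014) and by 0.58 in wild-type cultures (adjusted p = 0.00038). The 10 multiciliated cell markers summed to 20330 to 22350 in scratched Mmp7-null cultures, against 14400 to 16120 in scratched wild-type cultures, and to 18210 to 20700 in uninjured Mmp7-null cultures, against 13960 to 15530 in uninjured wild-type cultures. The fibroblast sums given above did not overlap between genotypes in either state and were higher in Mmp7-null cultures. In that list Vim, the vimentin gene, was higher in scratched Mmp7-null cultures, at a mean of 6.84 log2 units against 5.13 in scratched wild-type cultures (adjusted p = 0.0037), and Dcn, the decorin gene, in uninjured Mmp7-null cultures, by 1.00 log2 units (adjusted p = 0.011). The basal cell sums overlapped between genotypes in uninjured cultures, where Krt5 and Bcam were lower in Mmp7-null, and did not overlap in scratched cultures, where the Mmp7-null sums were lower. The basal sum is mostly Krt15, at means of 13.77 log2 units in scratched Mmp7-null and 13.96 in scratched wild-type cultures. That change of -0.19 did not pass (adjusted p = 0.13). Of the 12 basal cell markers, 6 had estimates above 0 in scratched cultures. In scratched Mmp7-null cultures Dapl1 and Aqp3 were lower and Krt14 higher. Cd68 was the 1 leukocyte marker that passed between genotypes, lower in scratched Mmp7-null cultures by a log2 value of -0.92 (adjusted p = 0.0012). The part of these lists in the genotype results was not tested.

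The other genes of the centromere, kinetochore and checkpoint were taken from 9 lists. Of 60 listed genes outside the 10, 58 were measured and 54 lay above background. With scratching 8 rose and 1 fell in Mmp7-null cultures, and 11 rose in wild-type cultures, with medians of 0.04 and 0.18. Over all genes 2.27% rose and 2.45% fell in Mmp7-null cultures, and 2.55% rose and 2.3% fell in wild-type cultures. The chromosomal passenger complex, which corrects faulty attachments, had 3 of 4 members rise in each genotype. Cdca8 (Borealin) had 7.77, 7.87, 7.74 and 7.91 log2 units in scratched Mmp7-null cultures, against 7.20, 7.18, 7.34 and 7.39 in uninjured ones, and 8.32, 8.37, 7.91 and 8.26 in scratched wild-type cultures, against 7.18, 7.18, 6.86 and 7.20 in uninjured ones. Its log2 fold change was 0.54 in Mmp7-null (adjusted p = 0.0076) and 1.11 in wild-type cultures (adjusted p = 1.8e-05). Birc5 (survivin) had 0.62 and 1.09, and Incenp, the scaffold of the complex, 0.62 and 0.70, in the same order. In scratched cultures Cdca8 (-0.39, adjusted p = 0.035) and Birc5 (-0.44, adjusted p = 0.024) were the 2 pathway genes lower in Mmp7-null than in wild-type, where 2.92% of all genes were lower. The Cdca8 groups touched at 7.91, and of its other probe sets 1428481_s_at gave -0.39 and 1428480_at -0.04. Neither gene was called without Mmp7-null scratched 1 or wild-type scratched 2, or with a term for the spike-in set.

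Of the 6 listed genes of the checkpoint and its targets, 2 rose in both genotypes, and 3 of 6 estimates were above 0 in each. Those that rose were Plk1, the mitotic kinase, and Cdc20, the activator that the checkpoint holds back. Plk1 had log2 fold changes of 1.26 (adjusted p = 0.00081) in Mmp7-null and 1.62 (adjusted p = 5.0e-05) in wild-type cultures, and Cdc20 0.44 (adjusted p = 0.036) and 1.03 (adjusted p = 5.9e-05). In the outer kinetochore the remaining pair of Ndc80 complex subunits rose in wild-type cultures, Spc24 by 0.62 (adjusted p = 0.010) and Spc25 by 0.59 (adjusted p = 0.015). They had 0.09 and -0.04 in Mmp7-null cultures, neither of which passed. They were the 2 called of 8 listed genes of the Knl1, Mis12 and Ndc80 complexes. Of these 8, 3 had estimates above 0 in Mmp7-null and 6 in wild-type cultures. Of the 17 genes of the constitutive centromere network, Cenpw rose in wild-type cultures by 0.81 (adjusted p = 0.00089) and Cenpx fell in Mmp7-null cultures by 0.33 (adjusted p = 0.047). None of the 3 measured CENP-A deposition genes, the 3 Ska complex genes or the 4 genes of the Rod-Zw10-Zwilch complex with Spindly passed in any comparison.

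Around cohesin, 2 of 4 listed genes rose in Mmp7-null and 1 in wild-type cultures, with all 4 estimates above 0 in each genotype. Espl1, the separase, rose by 0.93 in Mmp7-null (adjusted p = 0.024) and by 1.25 in wild-type cultures (adjusted p = 0.0032). Sgo1, the shugoshin of mitotic centromeres, rose by 0.66 in Mmp7-null cultures (adjusted p = 0.0098) and had 0.29 in wild-type cultures (adjusted p = 0.27). Its difference of responses, 0.37 (SE 0.18), did not pass (adjusted p = 0.66). Of 9 kinetochore microtubule factors, 1 rose in Mmp7-null and 2 in wild-type cultures, with 7 of 9 estimates above 0 in each genotype. Nusap1, a microtubule bundling protein, rose by 0.87 in Mmp7-null (adjusted p = 0.012) and by 1.66 in wild-type cultures (adjusted p = 6.3e-05). Kif2c, the kinesin that removes tubulin from kinetochore microtubules, was the 1 pathway gene whose response differed between genotypes. It had 7.11, 7.33, 7.27 and 7.25 log2 units in scratched Mmp7-null cultures, against 7.27, 6.72, 6.93 and 6.64 in uninjured ones, and 7.80, 7.53, 7.36 and 7.82 in scratched wild-type cultures, against 6.29, 6.15, 6.35 and 6.11 in uninjured ones. As with Sgo2a, the uninjured wild-type cultures were the lowest. The difference of responses was -1.05 (SE 0.18, adjusted p = 0.043), and in uninjured cultures Kif2c was 1.59-fold higher in Mmp7-null (adjusted p = 0.0089). The second Kif2c probe set above background, 1449060_at, gave a difference of -0.43 and an uninjured genotype change of 0.28. Neither call held with a term for the spike-in set. No pathway gene was called for the difference in the fits with 1 array left out, except those without Mmp7-null uninjured 1, Mmp7-null uninjured 4 or wild-type scratched 3.

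**Figure D5:**
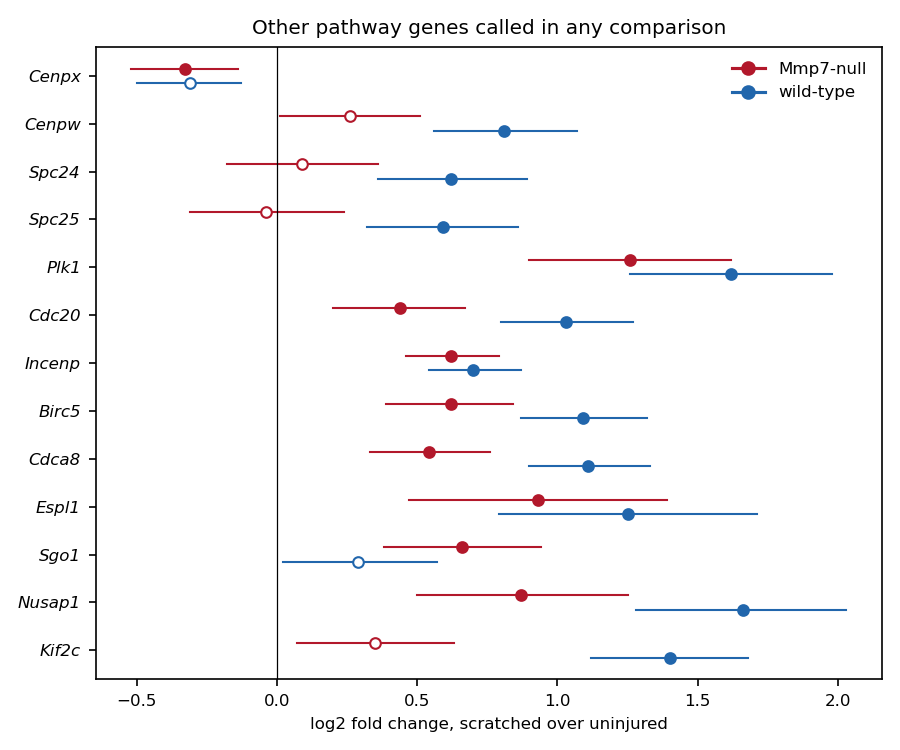
Scratch responses of the 13 other pathway genes that passed the test in any comparison. The x axis is the log2 fold change of scratched over uninjured cultures, in Mmp7-null (red, upper of each pair) and wild-type (blue), with unadjusted 95% intervals; filled points have an adjusted p under 0.05, and Cenpx is the 1 gene left of 0 in both genotypes.

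S phase genes were set beside them. Of 22 measured replication and G1/S genes none passed with scratching in Mmp7-null cultures, and 2 fell in wild-type cultures, Mcm2, a subunit of the replicative helicase, by 0.48 (adjusted p = 0.048) and Slbp, which binds histone mRNA, by 0.19 (adjusted p = 0.032), where 2.3% of all genes fell. The medians of that list were -0.13 in Mmp7-null and -0.17 in wild-type cultures. Mki67, the Ki-67 antigen gene of cycling cells, rose by 0.68 in Mmp7-null and by 1.11 in wild-type cultures. Top2a, the topoisomerase of mitotic chromosomes, rose by 0.30 and 0.85. In uninjured cultures Top2a was higher in Mmp7-null by 0.41 (adjusted p = 0.0037), and Mki67 had 0.07 (0.98). Their differences of responses, -0.54 (0.053) and -0.43 (0.61), did not pass. Median S phase changes of Mmp7-null over wild-type were 0.15 in uninjured and 0.23 in scratched cultures, and Slbp was higher in both.

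The genes whose profile over the 16 arrays was most like the mean profile of the 10 were Top2a (Pearson r 0.98), Cep55, Aspm and Pbk (0.97 each), Anln (0.96), Cdc20, Cks1b, Ccnb2 and Cdca8 (0.95 each) and Nusap1 (0.94), out of 11645 genes above background. These values hold the differences between the 4 groups and the signal distribution of each array, and are given as a description. Among the 10 genes themselves the 45 pairs had r of 0.42 to 0.98 over 16 arrays, with a median of 0.77. After the group means were subtracted the same pairs had r of -0.28 to 0.79, with a median of 0.31, and 39 of 45 were above 0. The profile left after that subtraction was most like those of AU018091 (0.94), Fam110a (0.92), 2310067E19Rik, Cdk5rap2 and Nsd2 (0.89 each), Pbk, Atp7a and Zwilch (0.88 each), and Mcf2l and Txlng (0.87 each). In that profile wild-type uninjured 3, wild-type scratched 3 and Mmp7-null scratched 1 were lowest, at mean deviations of -1.39 to -0.79 SD units. The remaining arrays had -0.33 to 0.65. Wild-type scratched 3 and Mmp7-null scratched 1 are doubted arrays. The part of array signal in the r after subtraction was not tested.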

How the data were processed

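RNA of 16 cultures was hybridised to 1 Affymetrix array each. The authors deposited intensities made with RMA, per the submitters' processing notes (no version given), and the values are linear. The labels name the 430A 2.0 array, but the table's 45101 probe sets and the annotation supplied for it are those of the larger array of that family. Log2 was taken of the deposited intensities, with no further normalization. Of all probe sets, 34945 had 1 gene symbol, 64 were controls, and the 18193 genes were each represented by the probe set with the highest mean over 16 arrays. No dim genes were left out, and 11655 genes (64.1%) lay above background.

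Differences were tested with limma 3.58.1 in R 4.3.3, with a mean per group over all 16 arrays, 12 residual degrees of freedom, eBayes, two-sided tests and Benjamini-Hochberg adjustment over all genes at 0.05. The number of arrays limits the precision. On simulated data for the wild-type scratch comparison over 18193 genes, 189 of 200 changed genes were recovered, with 9 false calls. That recovery holds only for the changes put into the simulated data, and is not the power for the differences reported above. How many differences of the sizes reported above are found or missed on these arrays was not tested.

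The members and lists were chosen with earlier results of these data known. The text names all 10 members with all their probe sets, up to 3 called genes per pathway list and comparison with the largest change, Mmp7, Mki67 and Top2a, and the 10 genes most correlated with the members, before and after subtracting group means. Mcm2, Slbp, Deup1 and the other called markers were named after their values were seen. Replicate numbers were not found to pair the cultures. Alternatives were a replicate block, the 8 arrays compared, a filter on dim genes, other uses of several probe sets, another variance model, array weights, 2 normalizations, a term for the spike-in set or fits within sets (the last chosen after seeing the data), the doubted arrays left out, and each array left out. Protein sequences were not used here.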

Additional observations from a re-analysis of the deposited data

Results flagged for a closer look

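Within groups of 4 cultures, 1 culture stood apart from the other 3 by Dixon's criterion in 7 of 40 gene and group pairs, where chance flags about 5%. Scratched wild-type culture 3 was low for Bub1, at 6.01 log2 units against 6.92 to 7.04, and for Ttk, at 3.69 against 5.11 to 5.33. Its upper quartile of 115 was the lowest of the 16 arrays, and its part in these values was not tested. Uninjured wild-type culture 3 was low for Cenpf, at 5.02 against 5.76 to 5.81, and for Sgo2a, at 5.55 against 5.80 to 5.84. Uninjured wild-type culture 1 was low for Ttk, at 2.97 against 3.57 to 3.64. Culture 2 was high for Sgo2a in both Mmp7-null groups, at 6.39 against 6.29 to 6.31 in scratched and 6.54 against 6.29 to 6.31 in uninjured cultures.

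The scratch response of Sgo2a differed between genotypes by the test of the difference itself, at -0.65 log2 units (Mmp7-null minus wild-type, adjusted p = 0.025, limma). Mmp7-null cultures had a log2 fold change of -0.04 and wild-type cultures 0.61. The call was lost in 4 of 16 fits with 1 array left out, with trended and robust variance (adjusted p = 0.080) and with arrays centred on their medians (adjusted p = 0.081).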

How the results depend on the processing

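Over all alternatives, 1268 values kept their direction and side of the threshold, 81 lost a call, 51 gained one and 10 changed sign. With scratching, Cenpa and Cenpf were called in Mmp7-null cultures under 28 of 29 alternatives, the exception being the fit within the Phe set. In wild-type cultures they were called under every alternative with more than 1 array per group. With 1 array left out, the members called numbered 2 to 3 for scratching in Mmp7-null, 7 to 9 for scratching in wild-type, 1 to 2 for genotype in uninjured, 0 to 3 for genotype in scratched cultures and 0 to 1 for the difference of responses, and the pathway genes called 6 to 10, 11 to 15, 1 to 3, 0 to 4 and 0 to 2. The count of members called between genotypes in uninjured cultures was 2. It was 1 on the 8 arrays compared, with the mean of all probe sets, the most variable probe set or arrays centred on their medians. It was 4 without the dimmest 40% of genes, 5 with array weights, and 0 with a term for the spike-in set. Between genotypes in scratched cultures, where it was 0 (limma), it was 2 without the dimmest genes and with the mean of all probe sets, and 3 with array weights and with repeated quantile normalization. For the difference of responses it was 1. Among alternatives it was 2 without the dimmest genes, 4 with array weights and 3 with repeated quantile normalization. It was 0 with trended and robust variance and with arrays centred. For scratching in Mmp7-null cultures it was 6 with array weights, 2 on the 8 arrays compared and 0 within the Phe set. For scratching in wild-type cultures it was 6 on the 8 arrays compared. Lost there were Ttk (limma, adjusted p = 0.11), Ndc80 (0.16) and Nuf2 (0.055). Every other fit within the Phe set has 1 wild-type array per state, with no spread of its own, so those counts are not given.

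Pathway genes called with scratching numbered 3 within the Lys set and 0 within the Phe set in Mmp7-null cultures, and 22 with array weights in wild-type cultures. Between genotypes in uninjured cultures they numbered 2 on the 8 arrays and with the most variable probe set. They numbered 4 with array weights and without the doubted arrays, 3 with repeated quantile normalization, and 0 with a term for the spike-in set. Between genotypes in scratched cultures they numbered 0 on the 8 arrays, with arrays centred and with a term for the spike-in set. They numbered 4 without the dimmest genes, 6 with array weights and 5 with repeated quantile normalization. For the difference they numbered 0 with the mean of all probe sets, with arrays centred, with a term for the spike-in set and without the doubted arrays, and 2 with array weights. The cause was not tested, except that the fits on fewer arrays or within sets have fewer samples. In the Phe set wild-type has 1 array per state, which was assumed to vary like the other groups. Counts from fits with those arrays are not given.

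The values that changed sign were those of Sgo2a for scratching in Mmp7-null cultures, at 0.00 with array weights, 0.04 within the Phe set and 0.02 without Mmp7-null uninjured 2 (-0.07 to 0.02 over fits with 1 array left out); of Ndc80 between genotypes in scratched cultures, at -0.07 with repeated quantile normalization, -0.14 with a term for the spike-in set and -0.01 without Mmp7-null scratched 4 (-0.01 to 0.05); of Ndc80 for scratching in Mmp7-null cultures, at -0.02 without Mmp7-null uninjured 4 (-0.02 to 0.14) and -0.03 within the Lys set; of Bub1 between genotypes in scratched cultures, at 0.04 without Mmp7-null scratched 1 (-0.37 to 0.04); and of Nuf2 between genotypes in uninjured cultures, at -0.02 within the Phe set.

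With the replicate number as a block, the members called numbered 2 and 9 for scratching in Mmp7-null and wild-type cultures, 1 and 0 between genotypes in uninjured and scratched cultures and 1 for the difference, and the pathway genes called for the difference numbered 0. Same-numbered cultures had correlations of -0.22 to 0.31 over 16 pairs, 3 of them over 0.1, so the numbers do not pair the cultures.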
